A study of Homo sapiens with 4 samples.

Results

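The 8 genes described here are MYC, SOX9, ASCL2, BIRC5, CD44, EPHB2, EPHB3 and JAG1, a set of classical targets of Wnt signalling in the intestine and in colorectal cancer. They were chosen by symbol from the 33538 genes listed in the count matrices, and each symbol matched 1 row. Single-cell RNA sequencing (scRNA-seq) had been performed on HCEC 1CT, a line of human colonic epithelial cells immortalised with TERT and CDK4, to follow the first days after depletion of the tumour suppressor APC. Cells carried either a short hairpin directed at APC (the shAPC groups) or a scrambled hairpin (the shScr groups) and were harvested at day 3 or day 7 after transduction, with culture periods matched and puromycin selection before harvest. With 2 hairpins and 2 days there were 4 groups of 1 library each. The differences below therefore lack any check by replicates, and no p-value is given. A single shRNA sequence is named as the one used against APC, hence an effect of that sequence apart from APC and an effect of APC loss cannot be told apart. The sources call the virus retroviral in one place and lentiviral in another, and they differ on the version of the 10x Genomics kit.

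In the canonical Wnt pathway, APC is part of the complex that marks β-catenin for destruction. When APC is lost, β-catenin accumulates, enters the nucleus and acts with TCF and LEF factors as a coactivator of transcription. In the crypts of the colon this programme maintains stem and progenitor cells, and the present genes were largely described as its targets in intestinal tissue and colorectal tumour cells. MYC and SOX9 are transcription factors of proliferating crypt cells, ASCL2 is a transcription factor of intestinal stem cells, and BIRC5 encodes survivin, a mitotic protein and inhibitor of apoptosis. CD44 is a receptor for hyaluronan, EPHB2 and EPHB3 are receptors for ephrin-B ligands that position cells along the crypt, and JAG1 is a ligand of Notch receptors.

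RefSeq promoter windows of 300 bases (build GRCh38.p14, from 250 bases before to 50 after the annotated start) were held for 4 of the 8 genes, namely CD44, EPHB2, EPHB3 and JAG1. The windows of CD44 and JAG1 are shown because these were the 2 of the 4 with the most counts, at chr11:35138921-35139220 on the plus strand and chr20:10673950-10674249 on the minus strand. Both are written 5′ to 3′, with the 50 transcribed bases in capitals.
CD44: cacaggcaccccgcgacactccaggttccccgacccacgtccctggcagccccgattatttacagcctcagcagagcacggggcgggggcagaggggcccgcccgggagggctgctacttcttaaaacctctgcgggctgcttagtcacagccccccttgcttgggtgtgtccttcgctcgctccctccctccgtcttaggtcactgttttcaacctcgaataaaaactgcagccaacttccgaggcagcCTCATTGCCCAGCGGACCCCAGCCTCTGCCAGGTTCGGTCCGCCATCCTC
JAG1: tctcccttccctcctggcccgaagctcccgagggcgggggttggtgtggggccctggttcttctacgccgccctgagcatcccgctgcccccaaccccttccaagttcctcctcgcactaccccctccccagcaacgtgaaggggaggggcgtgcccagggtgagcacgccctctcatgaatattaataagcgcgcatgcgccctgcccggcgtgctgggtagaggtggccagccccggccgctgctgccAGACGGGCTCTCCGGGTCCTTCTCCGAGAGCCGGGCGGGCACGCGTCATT
The core sequence of TCF and LEF sites was searched on both strands as CTTTGAA, and with AT, TA or TT in place of its last 2 letters. These 4 genes had 5 windows, since 2 windows for EPHB2 were 1 base apart. The core sequence was found in 0 of the 5, against 13.8% of all 35116 promoter windows of that length. This says only that these letters are not in these windows. The GC content was 63.3% in the CD44 window, 68.7% in that of JAG1, 69.0% in that of EPHB3 and 83.0% in both of EPHB2, against a median of 58.7% over all windows.

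All 8 genes are protein coding in GENCODE 44 on GRCh38, and the release used for the deposited counts was not stated. MYC lies on chromosome 8. SOX9 lies at chr17:72121020-72126416 and BIRC5 at chr17:78214186-78225636, both on the plus strand. ASCL2 lies at chr11:2268498-2270588 on the minus strand and CD44 at chr11:35138882-35232402 on the plus strand. EPHB2 lies at chr1:22710839-22921500 and EPHB3 at chr3:184561785-184582408, both on the plus strand, and JAG1 at chr20:10637684-10673999 on the minus strand. CD44, EPHB2 and JAG1 each overlap 1 other annotated gene on their own strand. Those in EPHB2 and JAG1 are the microRNA genes MIR4684 and MIR6870. Reads of the overlap in CD44 could also belong to the other gene, and the part of these overlaps in the counts was not tested.

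Barcodes with at least 200 genes, 500 unique molecular identifiers (UMIs, counted molecules) and under 5% mitochondrial UMIs were kept, which left 788 to 2600 cells and 28451455 to 39797418 UMIs per library. Counts were summed over these cells and are given as CPM (UMIs of the gene scaled to a total of 1000000 UMIs) with exact Poisson 95% intervals, and ratios have exact conditional binomial intervals, all of which cover counting error only. The target of the knockdown went from 639 UMIs in shScr to 193 in shAPC at day 3 and from 597 to 188 at day 7, or 34.4% and 34.6% of the shScr level. The median kept cell of shScr day 7 had 1330 UMIs, against 21029.5 to 49685.5 in the others. At day 3, 23 cell barcodes were shared between the shScr and shAPC libraries, 19 of them among the kept cells of both. Leaving out barcodes found in more than 1 library moved no member with 100 UMIs in every library by more than its counting interval, with CD44 at 0.21 and 0.23 and JAG1 at -0.10 and -0.73 on the log2 scale at days 3 and 7. At day 3 the median gene had a log2 shAPC/shScr ratio of 0.28 (5175 genes that reached 20 CPM in either library), which became -0.13 with TMM scaling. TMM lowers every day 3 ratio by 0.38 and DESeq2 scaling by 0.36, so that day 3 ratios between 0 and these sizes change sign with the scaling. At day 7 the median over genes was -0.10 (4573 genes), which became -0.11 with TMM. A ratio "relative to all genes" has this median subtracted. The label of the line was checked with 13 markers of colonic epithelium. Of these, CDX2, KRT20, MUC2, FABP1, CA1 and CDH17 had 0 UMIs in all 4 libraries and CDX1, VIL1, EPCAM and CDH1 at most 2 in any, whereas KRT8, KRT18 and KRT19 were detected. The summed level of that list was 17.1 to 32.3 CPM per library, and that of 10 mesenchymal markers 9123 to 11676 CPM, with all 10 detected. Most defining markers of colonic epithelium were thus at or near 0 in the cells in which these Wnt targets were measured.

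**Figure D1:**
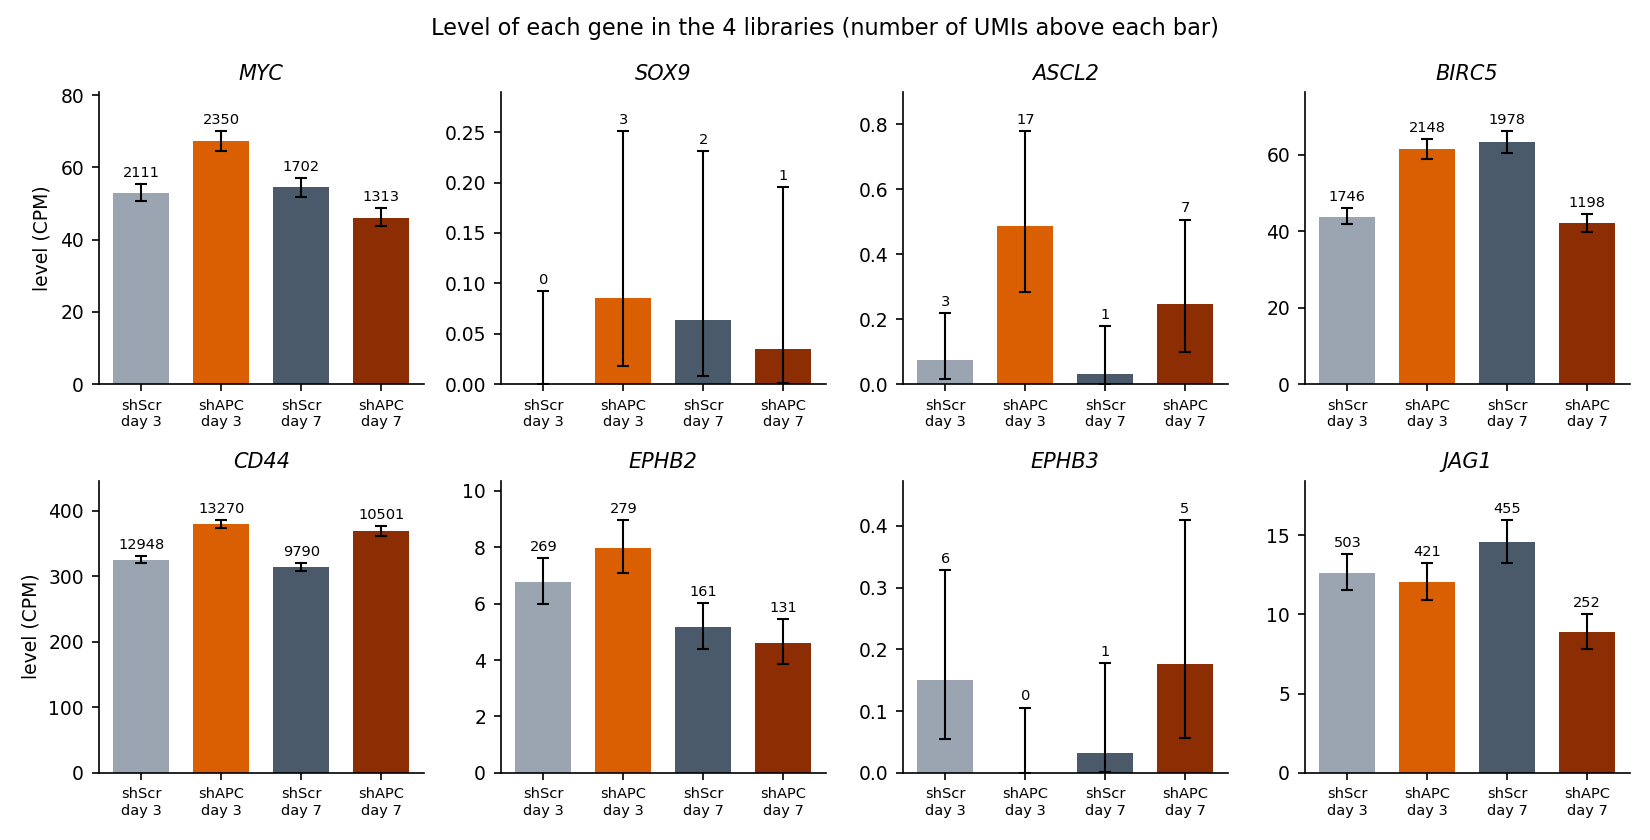
Level of each of the 8 genes (bars, CPM, linear axes from 0 that differ between panels) in the 4 libraries, with exact Poisson 95% intervals that cover counting error only and the number of UMIs above each bar. SOX9, EPHB3 and ASCL2 had 0 to 17 UMIs per library, whereas CD44 had 9790 to 13270.

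Among the transcription factors, MYC was the one with ample counts. It was measured at 53.0 CPM (50.8 to 55.4) in shScr day 3, 67.2 CPM (64.6 to 70.0) in shAPC day 3, 54.5 CPM (51.9 to 57.1) in shScr day 7 and 46.1 CPM (43.7 to 48.7) in shAPC day 7. Both shScr libraries lay close together, with shAPC above them at day 3 and below them at day 7. At day 3 shAPC was 1.27-fold of shScr. That excess was 0.07 on the log2 scale relative to all genes, where 58.0% of genes lay lower, and its direction turned with TMM and DESeq2 scaling, to -0.04 and -0.02. At day 7 MYC stood at -0.24 on that scale (-0.34 to -0.14), or -0.14 relative to all genes, with 33.2% of genes lower. From day 3 to day 7, the level of MYC in shScr differed by 0.04 on the log2 scale (-0.05 to 0.13), while in shAPC it was lower by -0.54 (-0.64 to -0.45), against a median of -0.34 over all genes in that comparison.

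SOX9, a factor of crypt progenitors and Paneth cells, was barely detected in any library. It had 0 UMIs in 1116 cells of shScr day 3, which allows a share of cells with a UMI of up to 0.269% by the floor of 3 counts and up to 0.330% by the exact interval, 3 in shAPC day 3, 2 in shScr day 7 and 1 in shAPC day 7. Each of these UMIs came from a different cell. Both libraries of every comparison were at or under the floor of 3 UMIs, so no ratio is given and a change was not detectable at this depth.

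ASCL2 was also at the limit of detection. It had 3 UMIs in 3 cells of shScr day 3, 17 UMIs in 9 cells of shAPC day 3, 1 UMI in 1 cell of shScr day 7 and 7 UMIs in 7 cells of shAPC day 7. Both shAPC libraries thus held more ASCL2 UMIs than both shScr libraries, and 7 of the 17 at day 3 came from 1 cell of 63198 UMIs. Without the cell richest in ASCL2 in each library, the day 3 log2 ratio was 2.51 (0.28 to 5.74) from 2 and 10 UMIs. Unthinned shares of cells with an ASCL2 UMI were 0.269% (0.0555 to 0.784) and 1.14% (0.524 to 2.16) in shScr and shAPC at day 3. At day 7 they were 0.0385% (0.000974 to 0.214) and 0.474% (0.191 to 0.973). The intervals overlapped at both days, but such overlap does not show that the shares were alike. The libraries also differed in depth per cell, whose part in these shares was not tested. After cells of at least 2000 UMIs had been thinned to that number, no ASCL2 UMI was left in any library.

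BIRC5 had the largest change in shAPC/shScr ratio between the days among the 5 genes with at least 100 UMIs in every library. Its level was 43.9 CPM (41.8 to 46.0) in shScr day 3, 61.5 CPM (58.9 to 64.1) in shAPC day 3, 63.3 CPM (60.6 to 66.2) in shScr day 7 and 42.1 CPM (39.8 to 44.6) in shAPC day 7. The 2 higher values were those of shAPC at day 3 and shScr at day 7, so that the order of shAPC and shScr was opposite at the 2 days. The log2 ratio was 0.49 (0.39 to 0.58) at day 3, where 74.3% of genes lay lower, and -0.59 (-0.69 to -0.48) at day 7, where 7.85% did. Relative to all genes these were 0.21 and -0.49. With time in culture BIRC5 was higher in shScr by 0.53 (0.44 to 0.62) and was lower in shAPC by -0.55 (-0.65 to -0.44), with 28.0% of genes lower.

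CD44 was the member with the smallest counting error and the only one of the 5 that was higher in shAPC at both days. It was measured at 325 CPM (320 to 331) in shScr day 3, 380 CPM (373 to 386) in shAPC day 3, 313 CPM (307 to 320) in shScr day 7 and 369 CPM (362 to 376) in shAPC day 7. The intervals of both shAPC libraries lay above those of both shScr libraries, and levels within each shRNA differed little with time. The excess was 1.17-fold at day 3 and 1.18-fold at day 7, or 0.22 (0.19 to 0.26) and 0.24 (0.20 to 0.28) on the log2 scale. Relative to all genes, however, CD44 was at -0.05 at day 3, where 43.6% of genes lay lower, and at 0.33 at day 7, where 85.7% did. With TMM and DESeq2 scaling its day 3 ratio turned to -0.16 and -0.14. In shAPC day 3, a cell of 183012 UMIs held 217 CD44 UMIs, and leaving out the richest cell of each library gave 0.21 and 0.23.

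The EphB receptors differed widely in counts. EPHB2 had 269 UMIs or 6.76 CPM (5.98 to 7.62) in shScr day 3, 279 or 7.98 CPM (7.07 to 8.98) in shAPC day 3, 161 or 5.16 CPM (4.39 to 6.02) in shScr day 7 and 131 or 4.60 CPM (3.85 to 5.46) in shAPC day 7. Both day 3 values lay above both day 7 values. For shAPC against shScr the ratio at day 3 was 0.24 (-0.01 to 0.49) and that at day 7 was -0.16 (-0.51 to 0.18), and neither interval excluded 0. Day 7 against day 3 was -0.39 (-0.68 to -0.10) in shScr and -0.79 (-1.10 to -0.49) in shAPC, against medians of 0.05 and -0.34 over all genes. EPHB3 had 6 UMIs in shScr day 3, 0 in shAPC day 3, 1 in shScr day 7 and 5 in shAPC day 7. At day 3 its level was 1.76-fold lower in shAPC with the 0 set to a floor of 3 UMIs, which leaves out the counting error of the 6. At day 7 it was at 2.46 on the log2 scale (-0.70 to 8.02), so its direction was not settled by the counts. The 0 of 788 cells in shAPC day 3 allow a share of up to 0.381% by the floor of 3 counts and up to 0.467% by the exact interval.

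JAG1, the Notch ligand, was lower in shAPC at day 7. It had 503 UMIs or 12.6 CPM (11.6 to 13.8) in shScr day 3, 421 or 12.0 CPM (10.9 to 13.3) in shAPC day 3, 455 or 14.6 CPM (13.3 to 16.0) in shScr day 7 and 252 or 8.86 CPM (7.80 to 10.0) in shAPC day 7. The shAPC day 7 library lay below the other 3. At day 3 the log2 ratio was -0.07 (-0.26 to 0.12), which was -0.34 relative to all genes and moved to -0.45 with TMM. At day 7 it was -0.72 (-0.95 to -0.49), a level 1.64-fold lower than in shScr, and -0.62 relative to all genes.

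**Figure D2:**
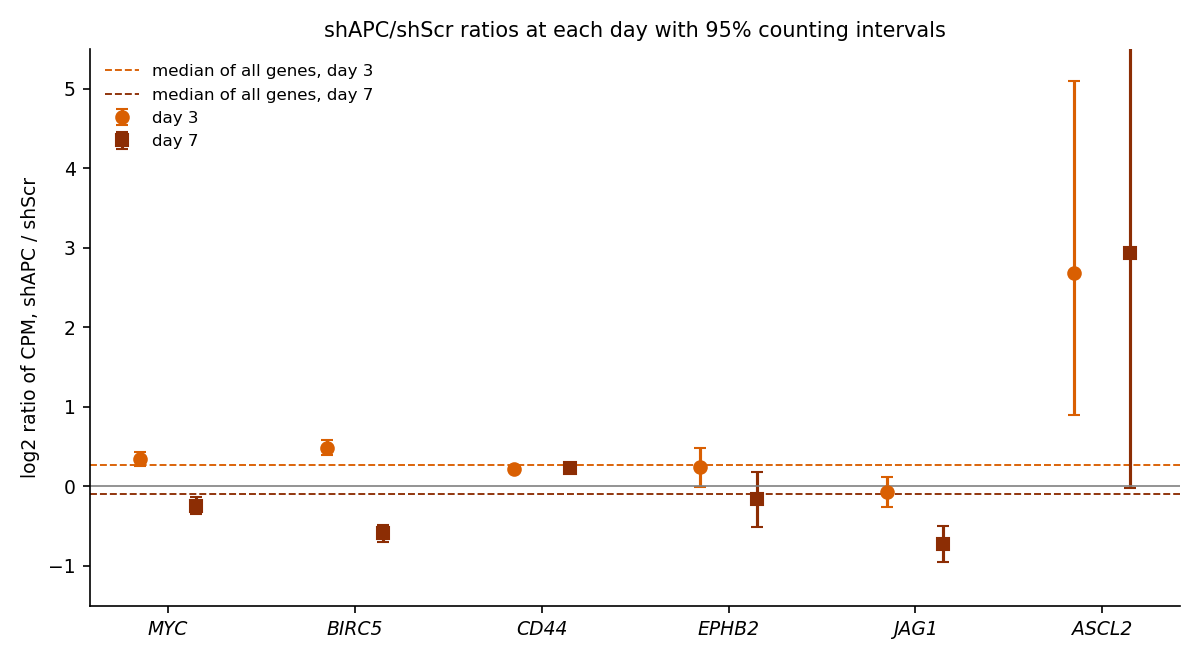
Log2 shAPC/shScr ratio of CPM at day 3 (circles) and day 7 (squares) for the 6 genes with a ratio at both days and more than 3 UMIs in shAPC at both, with 95% counting intervals and the median of all genes at each day as dashed lines. CD44 lay at 0.22 and 0.24, BIRC5 at 0.49 and -0.59, and the interval of ASCL2 at day 7 runs beyond the axis to 8.44.

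A count of genes past a fixed fold was taken as the common scale, with log2 ratios of CPM after adding 1 CPM and a minimum of 20 CPM in either library. Only MYC, CD44 and BIRC5 reached that minimum. At day 3, 0 of these 3 differed by at least 2-fold, where 4.29% of all genes tested did, and 0 of 3 by at least 1.5-fold, where 18.6% did. At day 7 the counts were 0 of 3 at either fold, against 2.56% and 10.5% of all genes. Between the days the counts were again 0 of 3 at both folds, against 1.12% and 6.83% in shScr and 5.83% and 25.0% in shAPC. The median log2 ratio over the 3 genes was 0.34 at day 3 and -0.24 at day 7, beside 0.28 and -0.10 over all genes.

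The day 7 ratio minus the day 3 ratio was taken for the 5 genes with at least 10 UMIs in every library, with an interval from the 4 counts. It was -1.08 (-1.21 to -0.94) for BIRC5, -0.65 (-0.94 to -0.36) for JAG1, -0.58 (-0.72 to -0.45) for MYC, -0.40 (-0.81 to 0.01) for EPHB2 and 0.01 (-0.04 to 0.07) for CD44. The all-gene medians differed by -0.37 between the days, and after that was taken off, the differences were -0.70, -0.28, -0.21, -0.03 and 0.38 in the same order. CD44 thus had equal ratios at both days in these units, and a higher one at day 7 relative to all genes. For APC itself the difference was 0.01 (-0.32 to 0.34).

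Since BIRC5 is transcribed mainly in G2 and mitosis, levels were compared within assigned phases of the cell cycle. Phases were assigned from 43 S and 53 G2M genes, with BIRC5 taken out of the G2M list, after cells had been thinned to 2000 UMIs. Cells under 2000 UMIs were left out, so that a phase was assigned at day 3 to 899 shScr cells out of 1116 and 673 shAPC cells out of 788, and at day 7 to 1198 out of 2600 and 1087 out of 1478. In G2M cells the BIRC5 level was 15.5-fold that of G1 cells in shScr day 3, 11.2-fold in shAPC day 3, 10.1-fold in shScr day 7 and 15.4-fold in shAPC day 7. These folds depended on the thinning. In the same order they were 12.8, 8.26, 7.91 and 8.73 with 1000 UMIs and 17.4, 13.8, 12.8 and 14.1 with 5000. At day 3 the share of these cells in G2M was 16.0% (13.7 to 18.6) in shScr and 17.5% (14.7 to 20.6) in shAPC, a gap within counting error. At day 7 it was 18.8% (16.6 to 21.1) and 13.3% (11.4 to 15.5), lower in shAPC as was BIRC5.

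In G1 and G2M cells BIRC5 differed in the same direction as in all kept cells, while in S cells at day 3 its interval included 0. BIRC5 in G1 cells was at 12.4 CPM in shScr and 21.5 CPM in shAPC at day 3, a ratio of 0.79 (0.60 to 0.98). At day 7 it was at 21.9 and 12.3 CPM, -0.84 (-1.06 to -0.62). For G2M cells the day 3 ratio was 0.32 (0.20 to 0.44), with -0.23 (-0.37 to -0.09) at day 7. In S cells it was -0.16 (-0.40 to 0.07) and -0.31 (-0.56 to -0.06). With TMM the day 3 ratio in G2M cells turns below 0, while that in G1 cells does not. The sizes depended on the thinning. With 1000 and 5000 UMIs in place of 2000, the day 7 ratio in G1 cells was -0.43 (-0.61 to -0.25) and -0.32 (-0.55 to -0.10), and the day 3 ratio in G1 cells was 0.76 and 0.56. The day 3 ratio in G2M cells was 0.13 (0.01 to 0.26) and 0.23, and that in S cells 0.17 (-0.07 to 0.41) and -0.10. The G1 class holds every cell that scored low for both lists, and how many cycling cells it still contained was not tested.

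For the other members the phases differed less. By CPM, MYC was highest in G1 cells in every library. In shAPC day 3 it was at 70.3 CPM in G1, 65.1 CPM in S and 53.7 CPM in G2M cells. The order of S and G2M there turned with thinning, to 55.5 and 60.6 CPM with 1000 UMIs and 46.2 and 56.1 CPM with 5000. The shAPC/shScr ratio of MYC at day 3 was 0.37 (0.28 to 0.47) in G1, 0.65 (0.31 to 0.98) in S and 0.07 (-0.18 to 0.32) in G2M cells. With thinning to 1000 and 5000 UMIs the ratio in S cells was 0.12 and 0.13, with intervals that included 0, and in G2M cells 0.42 (0.16 to 0.68) and 0.18. MYC ratios at day 7 were -0.24 (-0.36 to -0.12) in G1, 0.18 (-0.17 to 0.55) in S and -0.37 (-0.68 to -0.06) in G2M cells. In S cells, levels in shScr and shAPC were 42.2 and 44.3 CPM with thinning to 1000 UMIs and 42.9 and 40.3 CPM with 5000. No direction of MYC is therefore given for S cells at day 7. By CPM, CD44 was higher in shAPC in every phase, by 0.09 to 0.26 at day 3 and by 0.19 to 0.53 at day 7. The interval in S cells at day 3 included 0 (-0.03 to 0.22). TMM and DESeq2 scaling lower every day 3 ratio by 0.38 and 0.36, so that of CD44 turns below 0 in every phase. In S cells at day 7 CD44 was at 265 CPM in shScr and 383 CPM in shAPC. That ratio of 0.53 was 0.28 with thinning to 1000 UMIs and 0.51 with 5000.

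JAG1 showed its clearest dependence on phase at day 3. In G2M cells it had 101 UMIs or 19.0 CPM (15.5 to 23.1) in shScr and 45 UMIs or 8.57 CPM (6.25 to 11.5) in shAPC, a log2 ratio of -1.15 (-1.69 to -0.63), which was -1.34 and -1.44 with thinning to 1000 and 5000 UMIs. In G1 cells the same ratio was 0.11 (-0.11 to 0.32) and in S cells 0.29 (-0.39 to 0.97). Within shScr, JAG1 in G2M against G1 cells was at 0.71 (0.37 to 1.03) at day 3 and 0.37 (0.02 to 0.71) at day 7. With thinning to 1000 and 5000 UMIs the day 7 value was 0.27 (-0.08 to 0.60) and 0.24 (-0.11 to 0.58). Within shAPC the same contrast at day 3 was -0.55 (-1.03 to -0.09), and the day 7 value was 0.36 (-0.18 to 0.88). That day 7 value was 0.59 (0.07 to 1.08) and 0.17 (-0.40 to 0.71) with these thinnings. The day 3 contrasts kept their directions, at 0.83 and 0.78 in shScr and -0.68 and -0.84 in shAPC. At day 7 the shAPC/shScr ratio of JAG1 was -0.71 (-0.99 to -0.44) in G1 and -0.72 (-1.30 to -0.16) in G2M cells. In S cells it was -0.64 (-1.32 to 0.02), and -0.01 and 0.06 with thinning to 1000 and 5000 UMIs, so no direction is given for S cells.

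**Figure D3:**
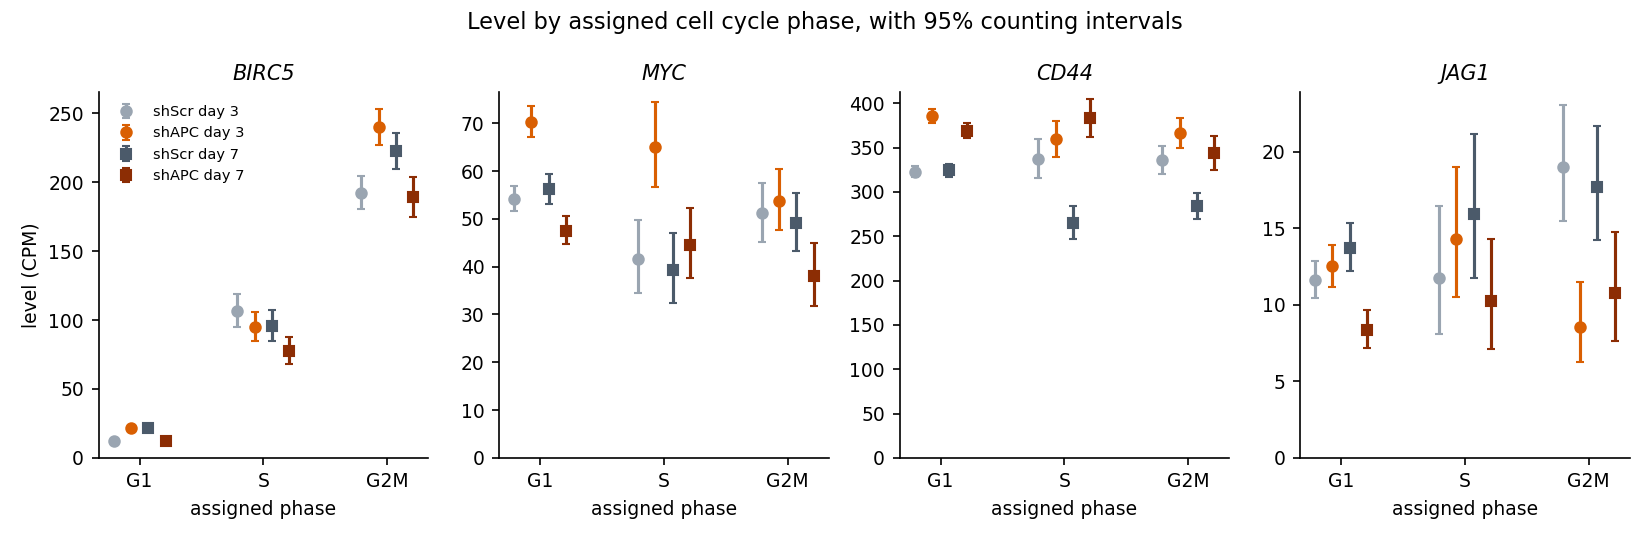
Level (CPM, linear axes from 0) of BIRC5, MYC, CD44 and JAG1 in cells assigned to G1, S and G2M in each of the 4 libraries, with 95% counting intervals. BIRC5 lay between 12.3 and 21.9 CPM in G1 and between 189 and 240 CPM in G2M, and JAG1 in G2M cells of day 3 was at 19.0 CPM in shScr and 8.57 CPM in shAPC.

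Because shScr day 7 held many shallow cells, the ratios were repeated within bands of UMIs per cell. In cells of at least 30000 UMIs, MYC had a day 3 ratio of 0.34 (0.25 to 0.42) and a day 7 ratio of -0.10 (-0.24 to 0.04), so the day 7 difference was not beyond counting error in the deepest cells. In cells of 2000 to 10000 UMIs MYC was at -0.59 (-1.47 to 0.24) at day 3, which leaves its direction there unsettled. In cells of 10000 to 30000 UMIs the day 7 ratio of MYC was -0.30 (-0.47 to -0.13). BIRC5 kept opposite directions at the 2 days in both bands of at least 10000 UMIs, with 0.55 and -0.53 in the deeper and 0.88 and -0.76 in the shallower one. JAG1 was lower in shAPC at day 7 in both, at -0.59 (-0.90 to -0.28) and -0.87 (-1.23 to -0.52). In cells of 2000 to 10000 UMIs BIRC5 was at 0.56 and -0.24 at days 3 and 7. Under 2000 UMIs it was at -0.58 and -0.40, and all of these intervals included 0. CD44 at day 7 was at 0.43 (0.37 to 0.50) in cells of 10000 to 30000 UMIs and at 0.10 (0.04 to 0.15) above, a gap between bands larger than either interval. In cells of 2000 to 10000 UMIs CD44 was at -0.28 (-0.64 to 0.07) at day 3 and -0.27 (-0.55 to 0.00078) at day 7, with no excess in shAPC. Its day 3 ratio in cells of 10000 to 30000 UMIs was -0.09 (-0.31 to 0.13), whereas above 30000 UMIs it was 0.23 (0.20 to 0.27). In cells under 2000 UMIs the ratio of CD44 was 0.13 (-0.52 to 0.76) at day 3, and 0.37 (0.10 to 0.64) was found at day 7. The size of the CD44 ratio thus differed between bands, while every CD44 ratio below 0 had an interval that included 0.

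**Figure D4:**
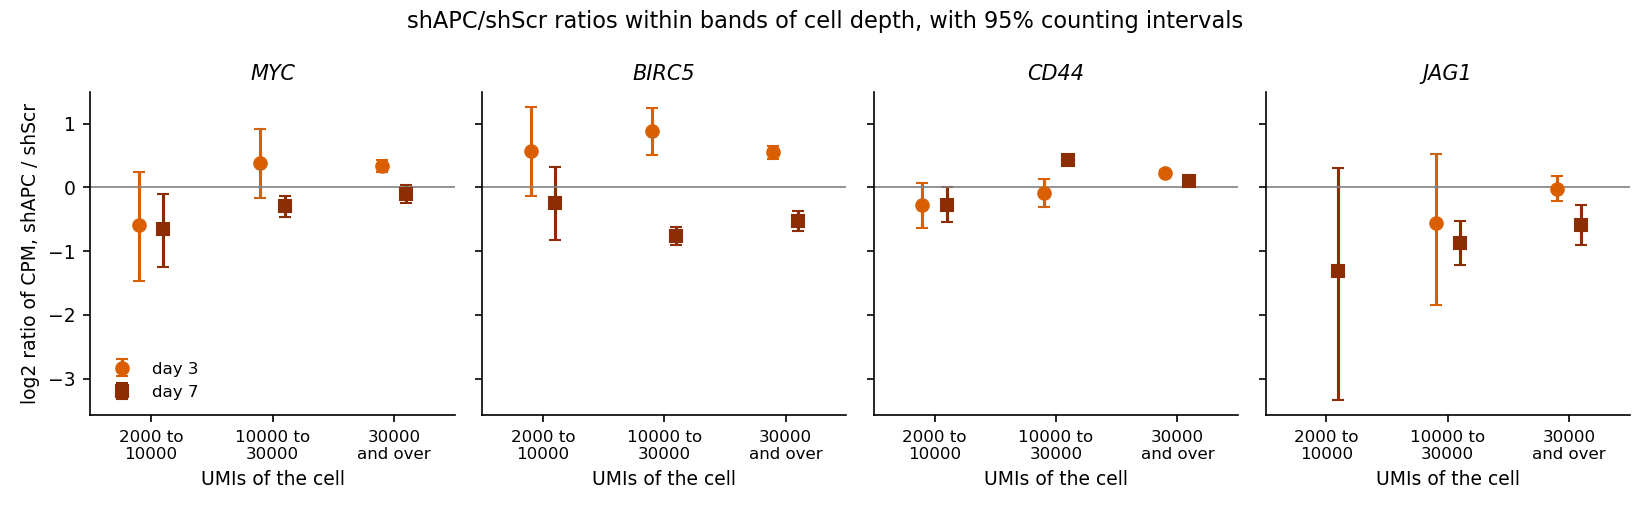
Log2 shAPC/shScr ratio of CPM of MYC, BIRC5, CD44 and JAG1 at day 3 (circles) and day 7 (squares) in cells of 2000 to 10000, 10000 to 30000 and at least 30000 UMIs, with 95% counting intervals. JAG1 had too few UMIs for a ratio in the shallowest band at day 3, and CD44 at day 7 went from 0.43 in the middle band to 0.10 in the deepest.

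Without thinning, the share of cells with a UMI followed depth more than the shRNA. With cells thinned to 2000 UMIs and shallower cells left out (217, 115, 1402 and 391 in shScr and shAPC day 3 and shScr and shAPC day 7), CD44 was detected in 45.9% and 47.5% of shScr and shAPC cells at day 3 and in 43.3% and 45.5% at day 7, whereas unthinned it was 79.1%, 82.7%, 54.3% and 76.3%. Thinned shares of MYC were 9.45%, 13.2%, 10.9% and 8.74% in the same order, against 54.4%, 65.6%, 29.5% and 40.5% unthinned. Those of BIRC5 were 9.01%, 10.8%, 12.1% and 9.29%, against 35.1%, 42.0%, 20.7% and 23.3%. JAG1 was found in 2.45%, 1.78%, 3.17% and 1.47% of thinned cells and EPHB2 in 0.779%, 1.49%, 0.417% and 0.552%, against 27.2%, 29.3%, 12.9% and 13.3% and 16.8%, 23.5%, 5.42% and 7.92% unthinned. Thinned shares of MYC, BIRC5, CD44 and JAG1 ranked shScr and shAPC as their CPM did at each day, whereas those of EPHB2 at day 7 did not. The intervals of the thinned shares in shScr and shAPC overlapped for each of these genes at both days. Such overlap does not show that the shares were alike, and their differences were not tested. A single line holds no cell type that should lack these genes, so a share due to free RNA could not be measured.

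The limit of 5% mitochondrial UMIs removed 23.4% to 51.1% of barcodes, most in shAPC day 7. CD44 was higher in the removed than in the kept barcodes in all 4 libraries, at 430 against 325 CPM in shScr day 3, 461 against 380 CPM in shAPC day 3, 361 against 313 CPM in shScr day 7 and 555 against 369 CPM in shAPC day 7. BIRC5 was higher in the removed barcodes at day 3 (0.25 and 0.60 on the log2 scale) and lower at day 7 (-0.97 and -0.72). How the limit bears on cell state was not tested.

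Variation over cells was described in cells of at least 10000 UMIs thinned to that number. The Fano factor, the variance over the mean and equal to 1 for counting noise alone, was 2.22 to 2.64 for BIRC5 in the 4 libraries. It was 1.41 to 1.93 for CD44 and 1.23 to 1.39 for MYC, and in both it was higher in shAPC than in shScr at each day. For EPHB2 and JAG1 it was 1.00 to 1.12. A typical cell held 3 or 4 CD44 UMIs at this depth (median), with a range from 1 at the 10th to 6 or 7 at the 90th percentile. Over cells, all pairs of members that could be computed had a Pearson correlation of log counts between -0.09 and 0.11 in every library, which in sparse counts is no finding.

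Among the shAPC cells of at least 10000 UMIs, thinned to that number, those that then had an AXIN2 or NKD1 UMI, targets in the feedback of the pathway, were set beside the remaining cells. At day 7, 60 such cells had 382 CPM of CD44 and 45.0 CPM of MYC, against 378 and 42.0 CPM in the other 867. Log2 ratios of these were 0.01 (-0.19 to 0.21) and 0.10 (-0.52 to 0.67), and that of BIRC5 was -0.44 (-1.17 to 0.21), so no difference beyond counting error was detectable. At day 3 only 10 such cells were found, with 9 MYC UMIs in all. Among the same thinned cells, those with at least 2 ATF3 UMIs at day 3, 27 in number, had 607 CPM of CD44 against 363 CPM in cells with none, a ratio of 0.74 (0.50 to 0.97). BIRC5 in them was at 37.0 against 70.9 CPM, -0.94 (-2.01 to -0.04). ATF3 is a stress-induced factor, and the median depth of these cells was 85531 against 56484.5 UMIs, whose part in the difference was not tested.

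The genes nearest to each member over the 4 libraries were taken from 3822 genes of at least 20 CPM in every library, by Euclidean distance of centred log2 CPM. They were MDH1 and SDHAF2 for MYC, ST13 and SMARCA1 for CD44, KLC1 and SNX17 for EPHB2, GLRX and PAFAH1B1 for JAG1, and VPS29 and NDUFB8 for BIRC5, at distances of 0.01 to 0.06. With 4 libraries such likeness describes these libraries only.

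Genes that act with the members were described next, from lists written by hand, with ratios of shAPC against shScr on the log2 scale throughout. In the MYC network, MAX, the obligate partner of MYC, was at 32.1 CPM in shScr and 45.4 CPM in shAPC at day 3, a ratio of 0.50 (0.39 to 0.61), and at 32.8 and 34.3 CPM at day 7, 0.07. MXD1, which competes with MYC for MAX, had 61 and 280 UMIs at day 3, a ratio of 2.39 (1.98 to 2.81), and 69 and 85 at day 7, 0.44 (-0.04 to 0.91). Of the other MAX-binding repressors, MNT was at 0.52 and 0.74 and MXI1 at 0.15 and 0.61. MYCL went from 0 UMIs in shScr to 13 in shAPC at day 3. That was 4.94-fold higher with the 0 set to the floor of 3 UMIs, which leaves out the counting error of the 13. In this list of 10 MYC partners, 4 reached 20 CPM at each day. Of these, 0 were at least 1.5-fold apart at either day, against 18.6% of all genes at day 3 and 10.5% at day 7. Of 12 established MYC targets, 10 reached 20 CPM. At least a 1.5-fold excess in shAPC was found for 2 of these 10 at day 3, NOP56 (0.65) and PA2G4 (0.63), against 17.1% of all genes tested, and for 0 of 10 at day 7, against 2.82%. None of the 10 was 1.5-fold lower at either day, against 1.51% and 7.65% of all genes. The list median was 0.21 at day 3 and -0.06 at day 7, beside 0.28 and -0.10 over all genes, and ODC1, which makes polyamines, was at -0.03 and -0.51.

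SOX9 was nearly absent, but other SOX factors were not. SOX4 was at 23.9 and 28.5 CPM in shScr and shAPC at day 3 and at 23.3 and 49.2 CPM at day 7, ratios of 0.25 (0.12 to 0.38) and 1.07 (0.94 to 1.21). SOX12 of the same subgroup was at 18.0 and 29.1 CPM at day 3 and at 10.6 and 18.9 CPM at day 7, ratios of 0.69 (0.55 to 0.83) and 0.83 (0.63 to 1.03). Among the SOX factors that reached 20 CPM, 1 of 2 was at least 1.5-fold higher at day 3, against 17.1% of all genes tested, and 1 of 1 at day 7, against 2.82%. SOX8, of the same subgroup as SOX9, had 49 and 64 UMIs at day 3 and 17 and 19 at day 7.

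Of the ligands and regulators of CD44, SRGN, a proteoglycan core protein that CD44 binds, was at 185 and 147 CPM at day 3 and at 243 and 99.3 CPM at day 7, ratios of -0.33 (-0.38 to -0.28) and -1.29 (-1.35 to -1.23). HAS2, which makes hyaluronan, was at -0.12 (-0.22 to -0.02) and -0.34 (-0.49 to -0.19). SPP1, which encodes osteopontin, had 34 and 78 UMIs at day 3, a ratio of 1.39 (0.79 to 2.01), and 18 and 17 at day 7. ESRP1 and ESRP2, splicing regulators of the epithelial forms of CD44, had at most 3 UMIs in any library. Counts per gene do not tell the splice forms of CD44 apart. In this list, 1 of 5 genes tested was at least 1.5-fold higher at day 3 (HMMR, a hyaluronan-binding mitotic gene, 0.72), against 17.1% of all genes, and 1 of 5 was lower at day 7 (SRGN), against 7.65%.

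Ligands and receptors beside EPHB2 and EPHB3 were low in counts. Of 10 genes in this list, 1 reached 20 CPM at day 3 and 0 did at day 7. At day 3, 0 of 1 was at least 1.5-fold apart, against 18.6% of all genes. EPHB6, a receptor without kinase activity, had 48 and 57 UMIs at day 3 and 31 and 100 at day 7, ratios of 0.44 (-0.14 to 1.02) and 1.82 (1.23 to 2.46). EPHB4 was at -0.05 and -0.15, with intervals that included 0. EFNB1, a ligand of EPHB2, was at 5.13 and 7.76 CPM at day 3, 0.60 (0.33 to 0.87), and at 0.07 at day 7. EFNB2 had 32 and 13 UMIs at day 7, a ratio of -1.17 (-2.22 to -0.20). EFNA1 went from 1 UMI to 68 at day 3, 6.28 (3.75 to 11.6), and 19 and 7 at day 7, -1.31 (-2.80 to 0.01).

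In the Notch pathway, JAG2 had 13 and 44 UMIs at day 3, a ratio of 1.95 (1.03 to 2.96), where JAG1 was at -0.07. The Notch target HES1 was at 10.1 CPM in shScr and 41.8 CPM in shAPC at day 3, 2.06 (1.90 to 2.22), and at 5.09 and 6.57 CPM at day 7, 0.37 (0.06 to 0.68). HES4 was at 2.07 (1.92 to 2.22) and 0.28 (0.14 to 0.43), whereas HEY1, another target, was at -0.27 (-0.74 to 0.19) and -0.41 (-0.92 to 0.10). Of the receptors, NOTCH2 was at 0.01 and -0.51 (-0.62 to -0.39), and NOTCH3 at 0.23 and 0.78 (0.59 to 0.97). Of the genes tested, 2 of 4 (HES1 and HES4) were at least 1.5-fold higher at day 3, against 17.1% of all genes, and 1 of 3 (NOTCH3) at day 7, against 2.82%.

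Survivin acts in mitosis within the chromosomal passenger complex, and the other 3 subunits were compared. AURKB, its kinase, was at 8.84 and 11.5 CPM at day 3 and at 15.0 and 9.28 CPM at day 7, ratios of 0.38 (0.17 to 0.59) and -0.69 (-0.91 to -0.47). CDCA8 was at 0.06 (-0.13 to 0.25) and -0.65 (-0.89 to -0.41), and INCENP at 0.58 (0.08 to 1.09) and -0.14 (-0.90 to 0.62). Day 7 ratios of all 4 subunits, BIRC5 included, were below 0. Among the other inhibitors of apoptosis, BIRC3 was at 19.9 and 47.8 CPM at day 3 and at 48.9 and 14.4 CPM at day 7, ratios of 1.26 (1.14 to 1.39) and -1.77 (-1.93 to -1.61). XIAP was at 0.47 and 0.40 and BIRC2 at 0.46 and 0.21, so that BIRC3 and BIRC5 had opposite directions at the 2 days and XIAP and BIRC2 did not. With TMM the day 3 ratios of BIRC2 and XIAP stay above 0, while that of CDCA8 turns below it. Of the 3 other passenger subunits, 0 reached 20 CPM at either day. Among inhibitors of apoptosis, 1 of 4 genes tested (BIRC3) was at least 1.5-fold higher at day 3, against 17.1% of all genes. At day 7, 1 of 4 (BIRC3) was lower, against 7.65%.

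**Figure D5:**
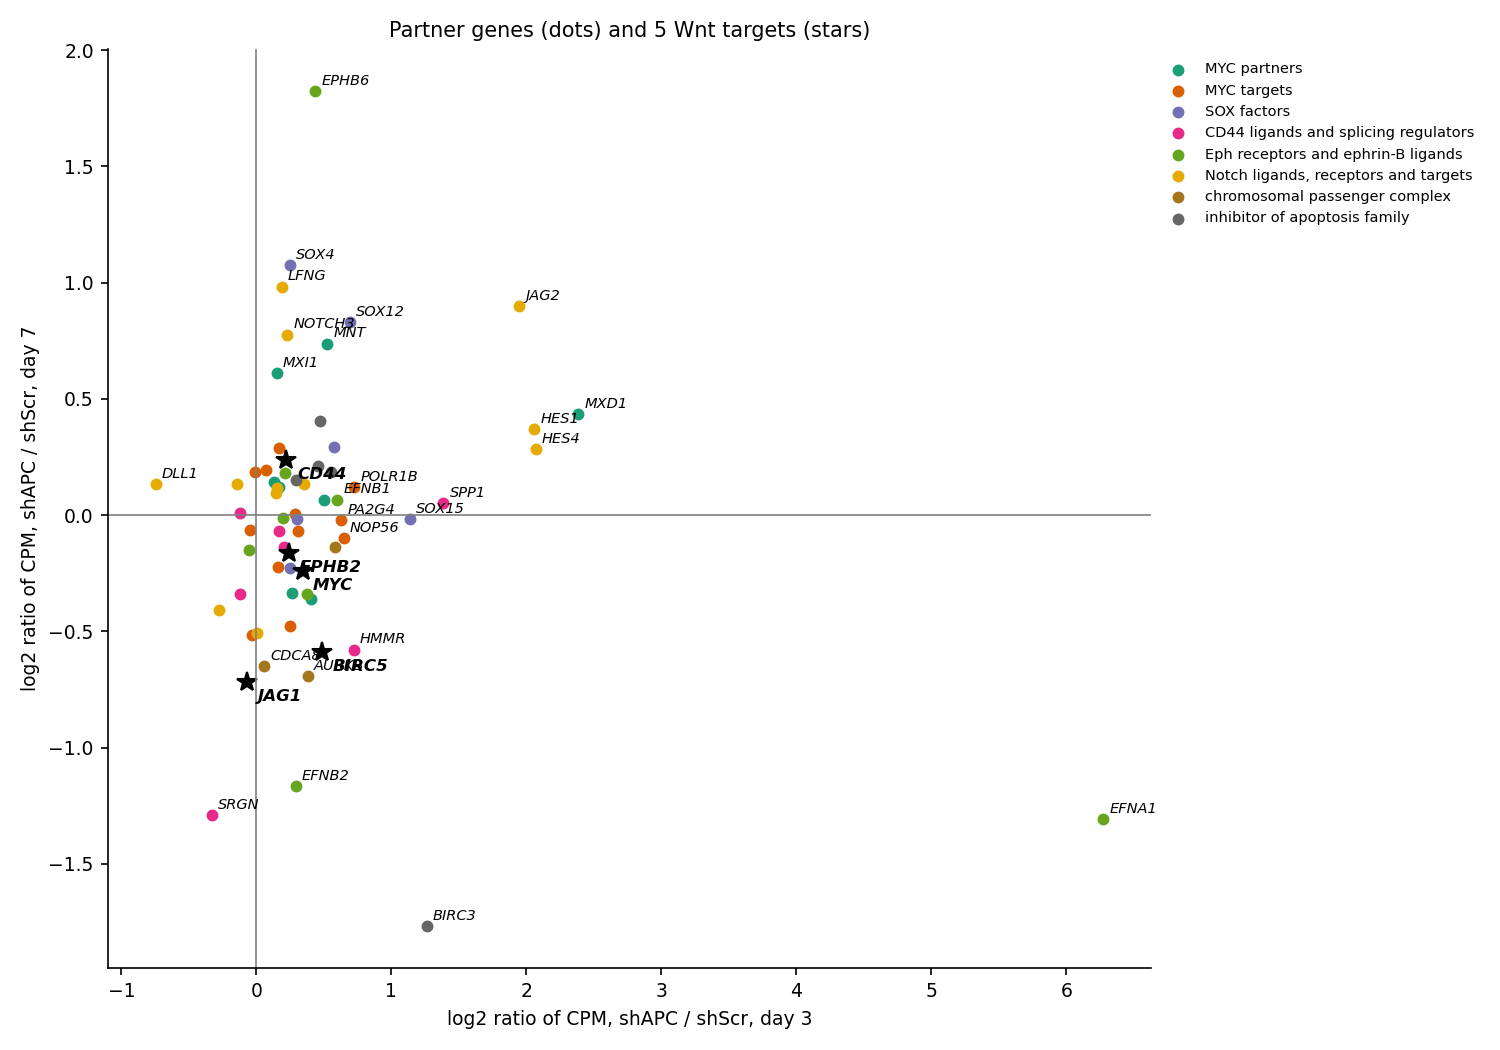
Log2 shAPC/shScr ratio of CPM at day 3 (x axis) against day 7 (y axis) for 61 genes with at least 20 UMIs in 1 library from 8 lists of partners (coloured dots, labelled where at least 1.5-fold apart at either day) and for MYC, CD44, EPHB2, JAG1 and BIRC5 (stars). The 2 axes share no library, the stars lay within 0.72 of 0 on both axes, and EFNA1, MXD1, HES1, HES4 and EPHB6 lay farther out.

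A further list of 20 genes that other work on colorectal cancer has named as Wnt targets was compared in the same way. Of 9 that reached 20 CPM, 4 were at least 1.5-fold higher in shAPC at day 3 (JUN at 1.14, ETS2 at 1.31, VEGFA at 1.01 and FOSL1 at 0.59), against 17.1% of all genes. At day 7 SOX4 was higher and MET lower (-0.66), 1 of 9 each, against 2.82% and 7.65% of all genes. The list median was 0.32 at day 3 and -0.01 at day 7, beside 0.28 and -0.10 over all genes. CLDN1, a tight junction gene, had 86 and 122 UMIs at day 3, a ratio of 0.69 (0.28 to 1.11), and 150 and 24 at day 7, -2.51 (-3.20 to -1.88). FGF18, a growth factor, had 6 and 38 UMIs at day 3, 2.85 (1.60 to 4.38), and 10 and 12 at day 7. For comparison in the same libraries, AXIN2, a negative regulator induced by the pathway, had 14 and 57 UMIs at day 3 and 4 and 117 at day 7. Of 10 markers of intestinal stem cells, LGR5 had at most 1 UMI in a library and OLFM4, SMOC2, PROM1 and MSI1 had 0. The other 5 were RGMB at 33.7 to 52.7 CPM per library, HOPX at 29.9 to 44.3 CPM, BMI1 at 15.7 to 19.3 CPM, LRIG1 at 5.45 to 8.21 CPM and TERT, which immortalised the line, with 47 to 95 UMIs per library. The summed list was 95.1 and 122 CPM in shScr and shAPC at day 3 and 105 and 89.6 CPM at day 7, and 0 of the 2 that reached 20 CPM were 1.5-fold apart at either day.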

How the data were processed

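The authors aligned 3′ single-cell reads of 4 libraries to hg38 with Cell Ranger, whose labels also name STAR, and deposited raw UMI count matrices over the barcodes called as cells. Per the file headers, Cell Ranger 3.0.2 wrote the shScr matrices and 3.0.0 the shAPC matrices, so this version coincides with the shRNA. Their later scaling, batch correction and imputation were not used here, and their set of cells was not recovered.

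UMIs were summed over the kept cells (limits in the text) with scanpy 1.11.5 and scipy 1.17.1 and scaled to CPM by their total. The 8 members, the gene lists and the comparisons were chosen with earlier results of these data known. Levels have exact Poisson intervals, ratios and shares exact (Clopper-Pearson) binomial 95% intervals, and the difference between days one from the 4 counts by the delta method. They cover counting error only, and where a library stood at 0 a floor of 3 UMIs per library was used. No test between groups was run, since each had 1 library. Ratios over all genes used a pseudocount of 1 CPM and a minimum of 20 CPM. Phases came from the S and G2M lists of Seurat 5.3.0. Genes named beyond the members had at least 20 UMIs in 1 library and a 1.5-fold ratio at either day, or were partners a result turned on, with the 2 nearest genes of each well counted member. Scrublet marked 22 of 5982 cells (0.368%), too few for the caller to have worked, and none were removed. Alternatives were scaling by edgeR 4.0.16 (TMM) and DESeq2 1.42.0 factors, other totals, cell filters, minimum levels, pseudocounts and thinning. Added after seeing the data were leaving out barcodes found in more than 1 library, leaving out the cell richest in each gene, and other thinning for MYC, CD44 and JAG1 within phases. The ratio and interval code was checked on simulated data.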

Additional observations from a re-analysis of the deposited data

Results flagged for a closer look

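MYC and BIRC5 are singled out because their shAPC/shScr ratios had opposite directions at the 2 days, each beyond counting error. The log2 ratio of MYC was 0.34 at day 3 and -0.24 at day 7, and that of BIRC5 was 0.49 at day 3 and -0.59 at day 7. The difference between the days was not tested, since each group held 1 library. The day 3 value of MYC turned to -0.038 with TMM, whereas that of BIRC5 stayed above 0 with a lowest value of 0.11. At day 7 MYC was below 0 in every band of depth, from -0.66 to -0.10. In cells of at least 30000 UMIs that -0.10 (-0.24 to 0.04) was not beyond counting error. At day 3 MYC was at -0.59 (-1.47 to 0.24) in cells of 2000 to 10000 UMIs, which leaves its direction there unsettled. The share of cells assigned to G2M was 16.0% (13.7 to 18.6) and 17.5% (14.7 to 20.6) in shScr and shAPC at day 3, a gap within counting error, and 18.8% (16.6 to 21.1) and 13.3% (11.4 to 15.5) at day 7, and its part in the result was not tested.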

How the results depend on the processing

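Under the scalings, cell filters, minimum levels and pseudocounts run, 0 members were called at least 2-fold apart at either day. That count adds a pseudocount, which holds ASCL2 and EPHB3 under 2-fold when no minimum is set, whereas their ratios of plain CPM were past it. The median log2 ratio over MYC, CD44 and BIRC5 at day 3 was 0.34. It turned to -0.037 under TMM and to -0.020 under DESeq2 scaling. It moved to 0.17 without mitochondrial and ribosomal protein genes in the totals, 0.14 with the mean over cells of CPM, 0.22 at a minimum of 100 CPM (CD44 alone) and 0.22 without a minimum. At day 7 it was -0.24 and turned to 0.23 at 100 CPM, with -0.35 and -0.087 for the reduced totals and no minimum. All genes at least 2-fold apart at day 3 (222) became 143 with DESeq2 size factors, 42 at 100 CPM and 528 without a minimum, and at day 7 (117) 258 with the mean over cells of CPM, 34 and 299. At day 3 MYC turned to -0.038 and -0.021 and CD44 to -0.16 and -0.14 under these 2 scalings. Under them all genes moved by -0.40 and -0.39 at day 3, and the higher share of 2-fold genes went from 90.1% to 55.3% and 58.0%. At day 7 it went from 30.8% to 47.5% with the reduced totals. No reversal was found at day 7 for the members with counts in every library. Over all settings BIRC5 lay between 0.11 and 0.56 at day 3 and between -0.67 and -0.34 at day 7, JAG1 at day 7 between -0.92 and -0.66, CD44 at day 7 between 0.21 and 0.48 and ASCL2 between 2.31 and 4.02 at day 3. No paired analysis was run, since each group held 1 library. With 1 library per group the variation between cultures is unknown, and depth limits SOX9, EPHB3 and ASCL2.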
